A study of Mus musculus with 4 samples.

Results

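Long intergenic noncoding RNAs (lincRNAs) are transcripts without an annotated coding frame whose genes stand apart from protein-coding genes. The lincRNAs described here are rows typed lincRNA in the authors' deposited count table, selected on their mean raw count, which had to be at least 50 over the 4 libraries. This chose 109 of 54532 gene rows and 109 of the 5559 rows typed lincRNA. They were thus chosen by the counts themselves, so the level of a member is a description and not a finding. The cells were bone marrow neutrophils of wild-type mice, and the groups were 2 libraries of cells given the amyloid-β peptide Aβ40 at 20 µg/ml for 4 h and 2 libraries of cells given DMSO, the solvent control. The stated aim of the series was to look for what lies behind the neutrophil extracellular traps that Aβ40 induces. Sex, age and the number of mice behind each library are not given in the labels, and neither is a separate time for DMSO. Whether the 2 libraries of each kind stem from different mice or cultures is not said either, and the p-values reflect the library-to-library spread alone, which may be technical.

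LincRNAs act in several ways: some build nuclear bodies, some bind and sequester proteins, some carry microRNAs or small nucleolar RNAs (snoRNAs) in their introns or exons, and for some it is the act of transcription at the locus that counts. Neutrophils are short-lived cells with a lobed nucleus and low RNA content, and in mouse myeloid cells individual lincRNAs are known to respond to interferon and to bacterial products or to set the cell's lifespan. In bulk RNA, fewer cells of a type and less RNA per cell cannot be told apart.

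The libraries held 17684621 and 19163503 counts (Aβ40 1 and 2) and 19524125 and 17212264 counts (DMSO 1 and 2). All 12 neutrophil markers were measured, and their summed level was 140300 and 133300 CPM, counts scaled to library size, with Aβ40 against 136000 and 95720 CPM with DMSO. Some markers of other cell types were higher with Aβ40. Of the B cell markers, 5 of 10 passed the adjusted test, with a summed level of 1857 and 1948 CPM against 1170 and 1153 CPM with DMSO. Of 8 eosinophil markers 1 passed, with 3566 and 3611 CPM against 1623 and 1365 CPM with DMSO, and of 10 measured T and NK cell markers 1 passed, with 99.1 and 113 CPM against 69.9 and 68.0 CPM with DMSO. The share of counts on 57 ribosomal protein genes was 5.58% and 5.98% with Aβ40 and 5.31% and 3.85% with DMSO, with DMSO 2 apart from the other libraries. The part of these differences in the lincRNA values was not tested.

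The 109 lincRNAs were a small fraction of the neutrophil transcriptome. They took 0.210% and 0.242% of all counts with Aβ40 (exact 95% binomial intervals 0.2081% to 0.2124% and 0.2401% to 0.2445%), against 0.285% and 0.257% with DMSO (0.2826% to 0.2874% and 0.2545% to 0.2593%). These intervals cover counting error only. The groups did not overlap. The mean share was 0.226% ± 0.0227 with Aβ40 and 0.271% ± 0.0199 with DMSO (SD, n = 2 each), a ratio of 0.835, with a 2-sided exact permutation p of 0.333, the smallest p that 2 against 2 libraries allow. Scaled for library composition, by edgeR's trimmed mean of M-values (TMM), the summed level was 2175 and 2429 CPM with Aβ40 and 2982 and 2378 CPM with DMSO. On that scale the groups overlapped.

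**Figure D1:**
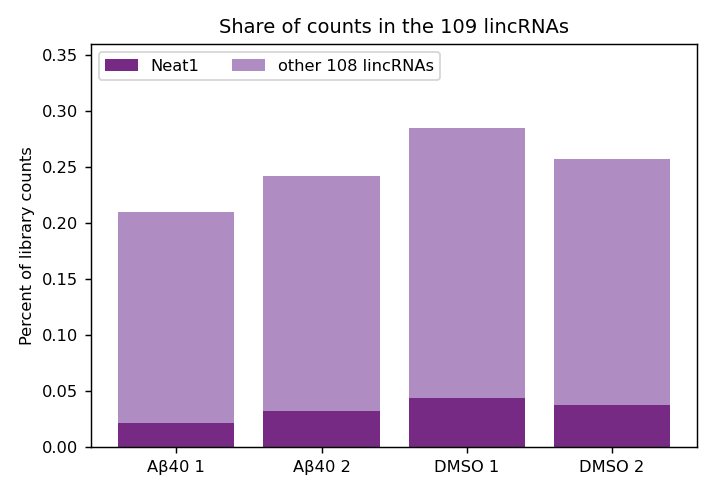
Percent of each library's counts that fell in the 109 lincRNAs, with Neat1 as the dark part of each bar and the other 108 as the pale part; 1 bar is 1 library. The Aβ40 bars reach 0.210% and 0.242% and the DMSO bars 0.285% and 0.257%.

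The 5 members with the most counts held a mean of 35.9% of this fraction with Aβ40 and 37.0% with DMSO. Neat1, which scaffolds the nuclear bodies called paraspeckles, had the highest mean count, 6207 a library. It held 10.1% and 13.1% of the lincRNA counts with Aβ40 (exact 95% intervals 9.75% to 10.4% and 12.8% to 13.4%) and 15.3% and 14.7% with DMSO (15.0% to 15.6% and 14.4% to 15.1%). The 10 members with the most counts held 50.4% ± 0.233 of the lincRNA counts with Aβ40 and 53.8% ± 1.40 with DMSO (SD, n = 2 each). After Neat1 these were 1700020I14Rik (mean count 3120), Gm26917 (2786), 1810058I24Rik (2387), Gm36161 (2321), 2900097C17Rik (1844), 2310001H17Rik (1716), Malat1 (1444), 4833407H14Rik (1114) and Gm42047 (1081). Only 13 of 109 members averaged at least 1000 counts, and 36 averaged under 100. At the edge of the selection, Gm38843, Gm15729 and Gm36445 averaged 53.5, 51.25 and 50 counts and were kept, while 1810006J02Rik and 4933412O06Rik at 49.75 and 1190001M18Rik at 49.5 were not. Xist, the RNA that coats the inactive X chromosome, had 0 counts in every library.

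Levels between genes were compared per length, on the deposited FPKM, which divides counts by gene length and library depth. The median lincRNA had a mean of 3.90 FPKM, against 6.27 FPKM for the 9741 protein-coding genes that passed the same minimum count, and 37 of 109 lincRNAs lay above that coding median. A total of 28 members reached 10 FPKM, 6 reached 40 FPKM and 29 stayed under 2 FPKM. The lincRNA gene models were shorter, with a median of 2420 bases against 4480 bases for the coding genes, and their transcripts had a median GC content of 46.6% against 49.0%. They were also noisier between libraries of 1 group. The absolute log2 ratio of Aβ40 1 to Aβ40 2 had a median of 0.26 over lincRNAs and 0.18 over coding genes, and that of DMSO 1 to DMSO 2 had medians of 0.43 and 0.28. Their counts were lower too, with a median mean count of 152.5 against 530.8 for the coding genes.

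The highest lincRNA per length was Mir142hg (chromosome 11, 87755577 to 87757270, plus strand, build mm10), the host of miR-142, a microRNA of blood cells. It had 86.8 and 123 FPKM with Aβ40 and 167 and 86.4 FPKM with DMSO, over a gene model of 269 bases. Gm36161, of no known role, was steadier, with 84.0 and 74.1 FPKM against 91.7 and 82.5 FPKM with DMSO. After it came Gm10076, with 19.9 and 81.2 FPKM against 82.6 and 27.6 FPKM with DMSO. The ratio between its Aβ40 libraries was the largest of any member, and RefSeq lists it as a pseudogene. Next came 1810058I24Rik, which encodes a small mitochondrial protein and which RefSeq types as protein coding, with 39.9 and 48.5 FPKM against 60.8 and 35.2 FPKM with DMSO.

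Gm26917 followed with 42.2 and 44.9 FPKM against 61.8 and 31.5 FPKM with DMSO. Its GC content of 69.1% was the highest of all 109, and its gene (chromosome 17, 39843013 to 39846341, plus strand) ends 12 bases before the start of the row CT010467.1, which the deposited table describes as related to 18S ribosomal RNA. That row, on the other strand, had 915 and 612 counts with Aβ40 and 1603 and 819 counts with DMSO. Both rows were highest in DMSO 1. Then came 4833407H14Rik (38.3 and 33.3 FPKM against 50.3 and 39.9 FPKM with DMSO), AC140186.1 (36.0 and 43.1 against 47.2 and 33.5 FPKM) and AW112010 (40.6 and 39.1 against 19.2 and 16.7 FPKM). Epb41l4aos, Gm28875, Gm34084 and Snhg6 completed the highest 12, with means of 27.2, 25.2, 24.5 and 24.2 FPKM. In TMM CPM, the Aβ40 and DMSO groups overlapped in 8 of these 12. Over all genes tested, 45.1% had groups that did not overlap. Neat1, first by count, was only rank 20 per length, at 10.3 and 15.1 FPKM with Aβ40 and 21.9 and 16.8 FPKM with DMSO, since its gene model is 20771 bases long.

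**Figure D2:**
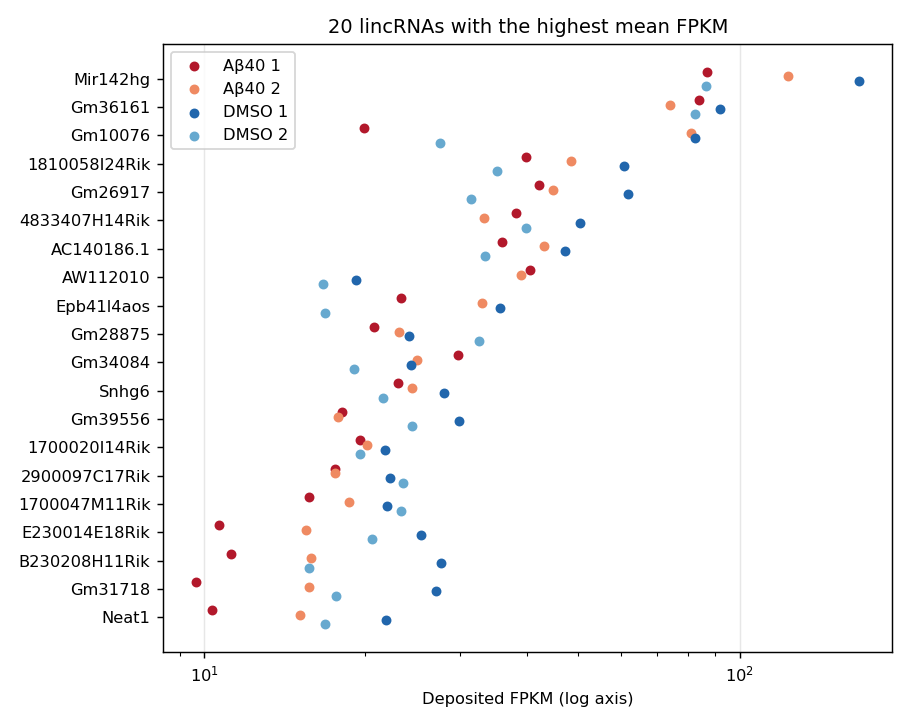
Deposited FPKM (log axis) of the 20 lincRNAs with the highest mean, 1 point per library, with Aβ40 in red shades and DMSO in blue shades. AW112010 is the row whose Aβ40 points, at 40.6 and 39.1 FPKM, stand well to the right of its DMSO points at 19.2 and 16.7 FPKM.

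The table's type lincRNA was not shared by every annotation. Of the 109 members, 80 matched RefSeq (GRCm38.p6) by symbol or identifier, and RefSeq types 70 of them as long noncoding RNA, 8 as protein coding, 1 as a pseudogene and 1 as a transcribed pseudogene. All 109 identifiers were found in GENCODE M21, 104 of them with the coordinates of the deposited table. In that annotation the exons of 26 members overlapped another gene by more than 5% of their length, and for 18 the other gene lay on the opposite strand. Whether reads were counted by strand is not given in the sources used here. The counts of these members may therefore include reads of the partner.

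No lincRNA passed the test of Aβ40 against DMSO. In edgeR's quasi-likelihood test with Benjamini-Hochberg adjustment over 13479 genes, 0 of 109 members were called higher and 0 lower at an adjusted p under 0.05. Over all genes tested, 0.126% were called higher and 0.0% lower. At an unadjusted p under 0.05, 5 members had higher values with Aβ40 (6.51% of all genes tested did) and 14 had lower values (5.72% of all genes tested did), which is 4.59% and 12.8% of the members. Among the 10407 tested genes of the same minimum mean count, these shares were 6.77% and 6.85%. DESeq2 called 1 member higher, AW112010, and 1 lower, Gm42047, against 0.757% and 0.245% of all genes. In TMM CPM, each Aβ40 library exceeded each DMSO library in 17 members (23.2% of all genes tested) and was under each in 35 (21.9% of all genes tested), which is 15.6% and 32.1% of the members. The log2 fold change was negative in 71 of 109 members, or 65.1%, against 48.9% of all genes tested and 50.2% of those with the same minimum. Its median was -0.09 over the lincRNAs, -0.01 over the protein-coding genes of the same minimum count and 0.01 over all genes tested.

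The libraries of a group differed, and fold changes varied with the library left out. DMSO 1 was the highest of the 4 libraries in 52 of 109 members, or 47.7% (26.6% of all genes tested), and DMSO 2 in 24, or 22.0% (27.5% of all genes tested). Without DMSO 2, edgeR called 20 members (6 higher, 14 lower, with 7.16% of all genes called). Without DMSO 1 it called 8 (6 higher, 2 lower, with 8.93% of all genes called), and without either one Aβ40 library it called 0. Fits with 1 DMSO library take the spread from the Aβ40 pair and assume that the lone DMSO library varies like it. AW112010 and Gm42047 were the 2 members called both without DMSO 1 and without DMSO 2.

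**Figure D3:**
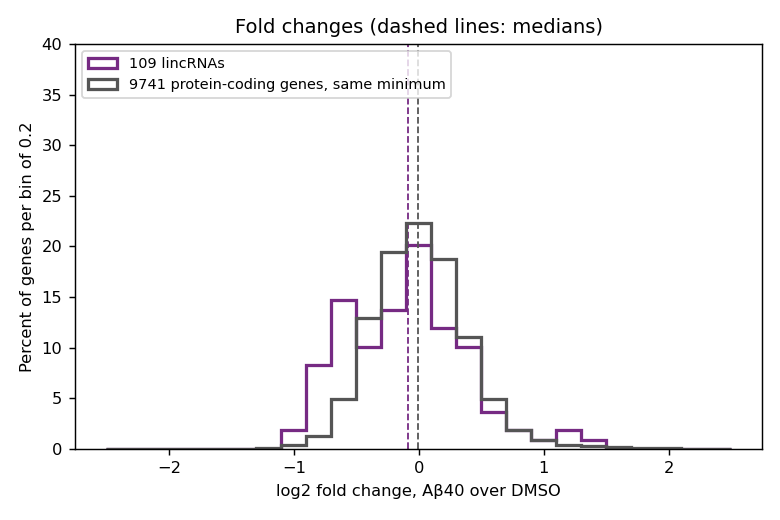
Distribution of the log2 fold change, Aβ40 over DMSO, as the percent of genes in bins of 0.2, for the 109 lincRNAs and for the 9741 protein-coding genes of the same minimum mean count; dashed lines are the medians, -0.09 and -0.01. The lincRNA curve holds 65.1% of its genes below 0.

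The most abundant members were on the lower side with Aβ40. The log2 fold change was negative in 13 of the 13 members with a mean count of at least 1000, and in 7 of those 13 the Aβ40 libraries were both under the DMSO libraries. Of all 3207 genes with that count, 54.8% had a negative log2 fold change and 30.5% had both Aβ40 libraries under both of DMSO. In 5 of the 13 (1700020I14Rik, Gm26917, 1810058I24Rik, 2310001H17Rik and AC140186.1) the sign turned on leaving out 1 library, and AC140186.1 and 1700020I14Rik stood near 0, at -0.02 and -0.04. It was negative in 23 of the 36 members that averaged under 100 counts.

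A pair of neighbours that organise the nucleus stood among them. Neat1 (chromosome 19, 5824708 to 5845478) and Malat1 (chromosome 19, 5795690 to 5802672), which accumulates in nuclear speckles, lie 22036 bases apart on the minus strand. Neat1 had 3739 and 6068 counts with Aβ40 and 8508 and 6513 counts with DMSO. Its groups did not overlap, and Aβ40 2 came close to DMSO 2. Neat1 averaged 268 ± 69.8 CPM with Aβ40 and 403 ± 74.8 CPM with DMSO (SD, n = 2 each), with a log2 fold change of -0.59 (SE 0.23, edgeR adjusted p = 0.371). Malat1 had 1011 and 1227 counts with Aβ40 against 1901 and 1639 counts with DMSO, so its groups were farther apart than the libraries within them. Its mean was 61.66 ± 3.562 CPM with Aβ40 and 95.01 ± 9.735 CPM with DMSO (SD, n = 2 each), with a log2 fold change of -0.62 (SE 0.17, edgeR adjusted p = 0.281). Frmd8, the nearest coding gene to Neat1 at 4224 bases, also had lower values, 54.8 ± 3.20 CPM with Aβ40 against 73.5 ± 3.16 CPM with DMSO (log2 fold change -0.42, SE 0.17, edgeR adjusted p = 0.375). Of the 16 paraspeckle protein genes 0 were called in either direction, with a median log2 fold change of -0.04, and of 17 nuclear speckle protein genes 0 were called, with a median of -0.23. Of 7 measured nuclear architecture lncRNAs 0 were called and 6 had a negative log2 fold change. Ftx, a noncoding gene of the X-inactivation centre, was the exception, with 210 and 172 counts with Aβ40 against 95 and 148 counts with DMSO (log2 fold change 0.70, SE 0.31, edgeR adjusted p = 0.412).

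AW112010 had the smallest p of all members. It is a transcript that mouse immune cells induce in response to interferon and bacterial products, and a protein translated from a noncanonical start has been described for it. It had 544 and 582 counts with Aβ40 and 277 and 240 counts with DMSO, and the groups were well apart. The mean was 31.1 ± 0.976 CPM with Aβ40 and 13.9 ± 1.37 CPM with DMSO (SD, n = 2 each), and the log2 fold change was 1.17 (SE 0.21, 95% confidence interval 0.70 to 1.63, edgeR adjusted p = 0.104). With DESeq2 the adjusted p was 0.00248, and over 12 alternative fits, the crossed replicate block not among them, it ran between 3.8e-05 and 0.997, with 4 of the 12 under 0.05 and the log2 fold change between 1.06 and 1.27. Its nearest tested coding gene, Ms4a8a, lies 16905 bases away and stood at -0.60 (SE 0.82).

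Gm42047 had the smallest p among the members with lower values, and no role is known for it. Its counts were 573 and 949 with Aβ40 and 1435 and 1367 with DMSO. The Aβ40 libraries differed from each other more than the DMSO libraries did, and both were lower. The mean was 41.6 ± 11.4 CPM with Aβ40 and 75.2 ± 2.41 CPM with DMSO (SD, n = 2 each), with a log2 fold change of -0.85 (SE 0.22, edgeR adjusted p = 0.255). In DESeq2 its adjusted p was 0.0487, and over 12 alternative fits, the crossed replicate block not among them, it ran between 0.000525 and 0.997, with 4 under 0.05. Its nearest tested coding gene, Klhdc4, which lies 3678 bases away on the other strand, had 121 ± 9.10 CPM with Aβ40 and 165 ± 11.7 CPM with DMSO (log2 fold change -0.45, SE 0.17, edgeR adjusted p = 0.359).

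Mirt1, a transcript named for its rise after myocardial infarction in mice, had 609 and 910 counts with Aβ40 and 1440 and 1128 counts with DMSO. It averaged 41.6 ± 8.47 CPM with Aβ40 and 68.9 ± 11.7 CPM with DMSO (SD, n = 2 each), with a log2 fold change of -0.73 (SE 0.21, edgeR adjusted p = 0.298). On the opposite strand of its locus lies 4833407H14Rik, whose exons overlap those of Mirt1 over 67.5% of their length, so the reads of this pair may not have been told apart. That member had 989 and 957 counts with Aβ40 against 1400 and 1108 counts with DMSO (log2 fold change -0.32, SE 0.19, edgeR adjusted p = 0.531). Both members were lower in each Aβ40 library than in either DMSO library.

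**Figure D4:**
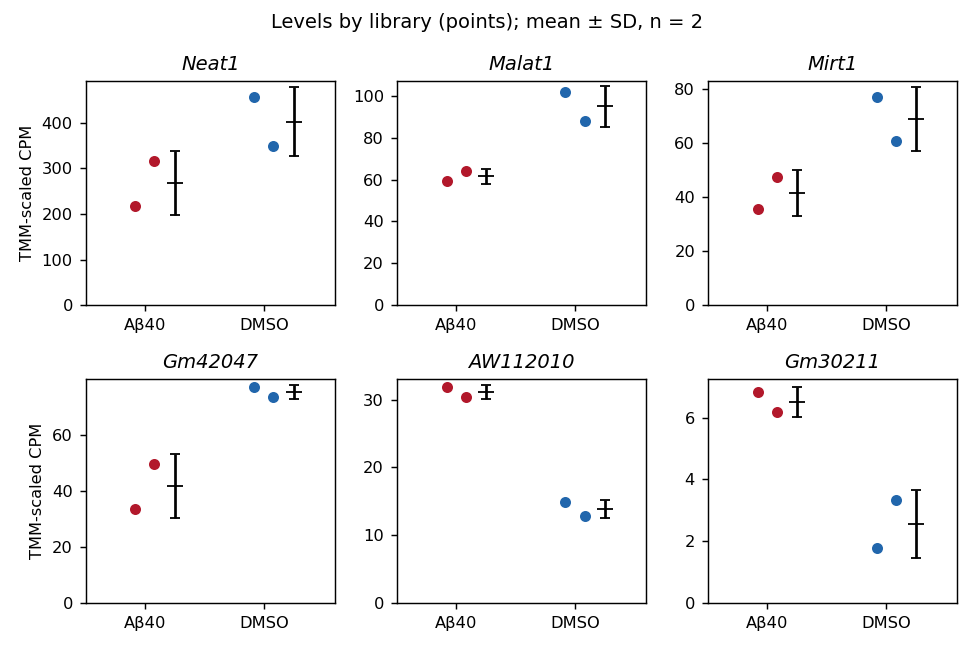
TMM-scaled CPM of 6 lincRNAs in each library (points) with the group mean ± SD beside them (n = 2), Aβ40 left of DMSO in each panel, on axes that start at 0. Neat1, Malat1, Mirt1 and Gm42047 have their Aβ40 points below their DMSO points, and AW112010 and Gm30211 have them above.

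Promoter windows from RefSeq (GRCm38.p6) are printed for AW112010, the member with the smallest p, and for Mirt1, the member with lower values that shares its locus with another member. They run from 250 bases before to 50 bases after the start, on the minus strand, at chr19:11050517-11050816 for AW112010 and chr19:53464747-53465046 for Mirt1. Capitals mark the letters GAGGAA, or TTCCTC on the other strand, the core that the myeloid factor PU.1 binds.
AW112010: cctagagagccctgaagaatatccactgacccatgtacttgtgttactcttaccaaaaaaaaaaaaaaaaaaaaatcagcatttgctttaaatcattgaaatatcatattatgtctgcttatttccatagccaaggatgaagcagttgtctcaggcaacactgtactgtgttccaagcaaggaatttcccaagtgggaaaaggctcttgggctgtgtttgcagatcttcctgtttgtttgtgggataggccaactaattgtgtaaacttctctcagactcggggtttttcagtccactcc
Mirt1: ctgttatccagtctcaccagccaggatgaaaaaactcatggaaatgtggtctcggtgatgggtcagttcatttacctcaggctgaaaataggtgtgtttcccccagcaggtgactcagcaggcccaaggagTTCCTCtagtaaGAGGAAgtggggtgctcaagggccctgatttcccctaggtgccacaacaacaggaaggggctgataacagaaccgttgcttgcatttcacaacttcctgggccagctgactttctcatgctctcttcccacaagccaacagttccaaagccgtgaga

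The Mirt1 window held these letters at 2 places, 119 and 107 bases before the start, and the AW112010 window at none. Over both strands the letters occur in 28.3% of the 32851 promoter windows of this length and in 23 of 70 windows of 62 lincRNA members, or 32.9%. The letters of a gamma-activated site, TTCNNNGAA, occur in 8.3% of all windows and in 4 of the 70. Neither printed window held them, nor TATAAA (13.6% of all windows) or CCAAT (37.4%). The letters of an interferon-stimulated response element were also searched on both strands. They occur in 3.44% of all windows and in 4 of the 70, and neither the AW112010 nor the Mirt1 window held them. A match describes letters in the window and not a bound site.

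Apart from AW112010, the members with the largest positive log2 fold changes had few counts. Gm30211 (chromosome 6, 70719074 to 70740554, plus strand) had 117 and 118 counts with Aβ40 and 33 and 62 counts with DMSO, a log2 fold change of 1.35 (SE 0.39, edgeR adjusted p = 0.294). Its gene spans Igkc, the immunoglobulin kappa constant gene of B cells, on the same strand. Igkc itself had 11759 and 15006 counts with Aβ40 and 12043 and 10068 counts with DMSO (log2 fold change 0.31, SE 0.19, edgeR adjusted p = 0.545), and the B cell markers as a list were higher with Aβ40, at 1857 and 1948 CPM against 1170 and 1153 CPM with DMSO. The part of B cell RNA in the Gm30211 counts was not tested.

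E130102H24Rik, a host of miR-101a, had 105 and 80 counts with Aβ40 and 31 and 50 counts with DMSO (log2 fold change 1.24, SE 0.42, edgeR adjusted p = 0.334). AC129328.1 had 157 and 128 counts against 89 and 60 counts with DMSO (log2 fold change 0.99, SE 0.34, edgeR adjusted p = 0.334). Fam120aos had 103 and 55 counts against 45 and 50 counts with DMSO, where Aβ40 2 was near the DMSO libraries (log2 fold change 0.80, SE 0.44). At the other end stood Gm21781, with 86 and 71 counts against 141 and 170 counts with DMSO (log2 fold change -0.93, SE 0.31, edgeR adjusted p = 0.334), and 2010110K18Rik, with 43 and 55 counts against 116 and 75 counts (-0.92, SE 0.38). Gm13431 had 59 and 114 counts against 173 and 155 counts with DMSO (log2 fold change -0.90, SE 0.33), and its nearest tested coding gene is Ptgs1, a prostaglandin synthase gene, 7492 bases away at -0.52 (SE 0.18). Gm31718 had 307 and 555 counts against 929 and 602 counts with DMSO (-0.80, SE 0.29), and E230014E18Rik had 159 and 257 against 408 and 330 counts (-0.80, SE 0.26). Gm39556 had 450 and 492 counts against 803 and 652 counts with DMSO (-0.59, SE 0.20). In all of these the groups did not overlap, as in 45.1% of all genes tested, and none was called by edgeR. Those named for their fold change were drawn from members without overlap, so for them this was fixed by the choice.

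**Figure D5:**
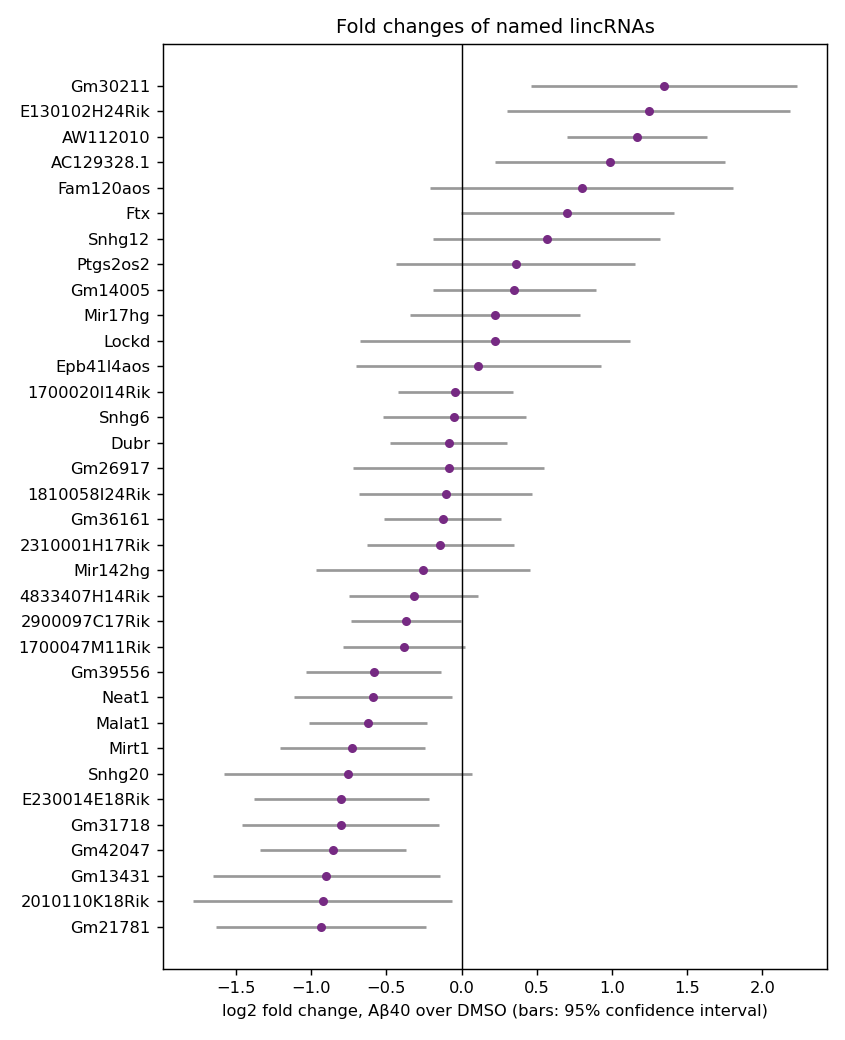
Log2 fold change, Aβ40 over DMSO, with its 95% confidence interval for lincRNAs named for their counts, p, fold change or known role. AW112010, at 1.17, has the narrowest interval of the 4 with the largest positive values.

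No member that carries small RNAs passed the adjusted test. By coordinates, 7 members hold 13 microRNA hairpins with 24 mature sequences in RefSeq and 22 distinct seeds, a seed being bases 2 to 8, the part that pairs with a target. Mature microRNAs were not measured here, and the values are those of the host transcript. Mir142hg had 406 and 641 counts with Aβ40 and 843 and 434 counts with DMSO, so the groups overlapped (log2 fold change -0.26, SE 0.31, edgeR adjusted p = 0.772). Within it, on the opposite strand, the row Mir142b had 14 and 29 counts with Aβ40 and 126 and 87 counts with DMSO (log2 fold change -2.28, SE 0.45, edgeR adjusted p = 0.137), while the row of the Mir142 hairpin itself had 0 counts in every library. Mir17hg, the host of the miR-17 to miR-92 cluster that promotes growth in blood cells, had 271 and 367 counts against 328 and 232 counts with DMSO (log2 fold change 0.22, SE 0.25). Mir155hg, whose microRNA is induced in activated macrophages and B cells, had 90 and 70 counts with Aβ40 and 87 and 79 counts with DMSO, and its groups overlapped. The other hosts were Ftx, E130102H24Rik, 6720427I07Rik (let-7d, 159 and 150 counts against 200 and 137 with DMSO) and Snhg20 (miR-6516, 66 and 128 counts against 204 and 129 with DMSO). The sequences below are those of the host that is highest per length, of the host with the largest fold change, of miR-155, and of the cluster members that share a seed, with the seed in capitals.
mmu-miR-142a-5p: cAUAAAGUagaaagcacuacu
mmu-miR-142a-3p: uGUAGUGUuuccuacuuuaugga
mmu-miR-101a-3p: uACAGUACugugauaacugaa
mmu-miR-155-5p: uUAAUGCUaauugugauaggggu
mmu-miR-17-5p: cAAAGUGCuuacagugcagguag
mmu-miR-20a-5p: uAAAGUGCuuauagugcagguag
mmu-miR-19a-3p: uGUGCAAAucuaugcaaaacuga
mmu-miR-19b-3p: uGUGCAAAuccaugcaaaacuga

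The cluster pairs miR-17-5p with miR-20a-5p and miR-19a-3p with miR-19b-3p by their seeds, and no other seed is shared among the 24. Of 13 measured genes in the list of snoRNA hosts, whose spliced exons are cleared by nonsense-mediated decay, 4 are members, 0 were called and 11 stood above 0 in log2 fold change, their median being 0.16. Snhg12 had 219 and 250 counts with Aβ40 and 219 and 107 counts with DMSO (log2 fold change 0.57, SE 0.33, edgeR adjusted p = 0.527). Snhg20 stood at -0.76 (SE 0.36), while Snhg6, with 458 and 542 counts against 601 and 461 counts, and Epb41l4aos, with 174 and 274 against 288 and 135 counts, had groups that overlapped. Among the 57 ribosomal protein genes, whose mRNAs share a growth-linked promoter type with snoRNA hosts, 0 were called, 17 had higher values at an unadjusted p under 0.05 and the median log2 fold change was 0.44. In CPM, DMSO 2 was the lowest library in Snhg12, Snhg6 and Epb41l4aos, while Aβ40 1 was the lowest in Snhg20. DMSO 2 was the lowest in 30.3% of the members and in 28.9% of all genes tested. It was also the lowest in the ribosomal protein share, at 3.85%. Of 14 nonsense-mediated decay genes 0 were called, with a median of -0.13, and of 20 nuclear RNA decay genes 0, with a median of 0.08.

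Long noncoding genes with a described role in immune or cell regulation split evenly, 5 positive and 5 negative among 10 measured. Of these 10, 7 are members, and 0 were called. 2900097C17Rik, the mouse Norad, which sequesters Pumilio proteins, had 1500 and 1668 counts with Aβ40 against 2050 and 2160 counts with DMSO. Its libraries agreed closely within each group (87.5 ± 0.354 CPM with Aβ40, 113 ± 4.43 CPM with DMSO; SD, n = 2 each), and its log2 fold change was -0.37 (SE 0.16, edgeR adjusted p = 0.407). Gm14005, known as Morrbid, which restrains the pro-death gene Bcl2l11 and so prolongs the life of mouse neutrophils, had 515 and 734 counts against 592 and 409 counts with DMSO (log2 fold change 0.35, SE 0.24, edgeR adjusted p = 0.584). Bcl2l11, 15772 bases away, stood at -0.23 (SE 0.16, edgeR adjusted p = 0.596). Neither was called.

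Lockd, transcribed beside the cell-cycle inhibitor gene Cdkn1b, had 385 and 481 counts with Aβ40 and 561 and 201 counts with DMSO, the DMSO libraries lying on either side (log2 fold change 0.22, SE 0.40). Cdkn1b, 3579 bases away, stood at -0.02 (SE 0.17). Ptgs2os2, the mouse lincRNA-Cox2 that macrophages induce on Toll-like receptor signalling, had 71 and 123 counts against 81 and 73 counts with DMSO (log2 fold change 0.36, SE 0.35), and Ptgs2, which encodes cyclooxygenase 2, stood at 0.21 (SE 0.22). Dubr, known from muscle differentiation, had 793 and 943 counts against 923 and 968 counts with DMSO (log2 fold change -0.09, SE 0.17, 95% confidence interval -0.48 to 0.30).

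Many of the lincRNAs lay near coding genes. A total of 52 of 109 overlapped a coding gene or lay within 5000 bases of one, and 18 lay more than 50000 bases away. Relative to the nearest coding gene, 27 were divergent, 25 upstream on the same strand, 24 downstream on the same strand, 19 convergent and 14 overlapping. The 27 divergent members had a median log2 fold change of 0.06 with 13 negative. Those downstream on the same strand had a median of -0.20 with 17 of 24 negative, and those upstream on the same strand -0.17 with 18 of 25 negative. Convergent members had a median of -0.04 with 11 of 19 negative. Among overlapping members, 8 of 9 on the opposite strand (median -0.08) and 4 of 5 on the same strand (median -0.45) were negative. The nearest coding or immunoglobulin gene that was itself tested had the sign of its lincRNA in 63 of 109 cases and in 31 of the 49 cases within 5000 bases, and 0 of these neighbours were called. Across the 92 members whose nearest coding gene was tested, the log2 fold changes of member and neighbour had a Pearson r of 0.19 and a Spearman rho of 0.18, a description across genes that share the same 4 libraries.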

How the data were processed

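Libraries were made from total RNA with an Illumina kit, per the labels' protocols. HISAT2 2.0.5, featureCounts 1.5.0-p3 and mm10 are listed in the submitters' processing notes. Neither the strand setting nor the annotation release is given in the sources used here. The authors deposited raw read counts per gene, which are whole numbers, and FPKM, which equal those counts divided by gene length and an effective library size. The members and gene lists were chosen with earlier results of these data known.

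Counts of all genes were filtered with filterByExpr, scaled by TMM and tested with edgeR 4.0.16 (quasi-likelihood, 2-sided, Benjamini-Hochberg over 13479 genes) in R 4.3.3, with group as the model's term, 2 residual degrees of freedom and no block. The fits were tested on simulated data. Alternatives were DESeq2 1.42.0, limma 3.58.1 on log2(FPKM + 1) and log2(FPKM + 0.1), other scalings and filters, a replicate block and leaving out each library. Named members were the 12 highest by mean FPKM, the 12 highest by mean count, the 10 smallest p, the 5 largest fold changes in each direction among members whose groups did not overlap, members of the lists of lncRNA roles, and the 3 rows on either side of the minimum. Exon overlap and GC content are from GENCODE M21 and sequences from RefSeq, both of GRCm38, the build the submitters' notes call mm10. Depth was 17212264 to 19524125 counts a library. SDs rest on n = 2.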

Additional observations from a re-analysis of the deposited data

How the results depend on the processing

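The number of calls depended on the fit. Against 17 genes called higher and 0 lower by edgeR, library-size scaling called 1 lower, DESeq2 called 102 higher and 33 lower, no filter on low counts 185 and 70, and limma on FPKM 0 with either pseudocount. Leaving out 1 library gave 0 to 805 genes higher and 0 to 471 lower. LincRNAs called were 1 higher and 1 lower with DESeq2 and 2 higher and 2 lower without the filter, and leaving out 1 library gave 0 to 6 higher and 0 to 14 lower. The cause was not tested. The labels give Aβ40 and DMSO libraries the same numbers but tie them to no animal. The correlation of same-numbered libraries' deviations was -0.187, so the numbers were not taken to pair the libraries. With the replicate block, edgeR called 27 genes higher, 0 lower and 0 lincRNAs. A crossed replicate block, chosen after seeing the data, called 445 of 13479 genes higher and 276 lower, with 4 and 8 of the 109 lincRNAs.

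The median lincRNA log2 fold change stayed negative in every fit, from -0.213 to -0.0723 on leaving out 1 library. The share of lincRNAs with a positive log2 fold change was 34.9% of the 109 and 21.4% of the 42 with a minimum mean count of 200. Negative values made up 50.2% of all tested genes with a mean count of at least 50. They made up 54.8% of those with at least 1000. Members with Aβ40 above and below DMSO in every library numbered 36 and 54 of 204 at a minimum of 20 (23.3% and 22.6% of all tested genes of that minimum), 5 and 18 of 42 at 200 (22.2% and 25.9%), and 42 and 73 of 262 over all long noncoding types (23.2% and 23.6%). With 1 library left out, 24 to 40 of 109 lay above and 44 to 61 below, against 33.1% to 40.4% and 31.6% to 38.2% of all genes tested.

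Among lincRNAs named for level, p, fold change or role, these crossed 0 on leaving out 1 library: Mir155hg (-0.285 to 0.221), Gm10076 (-1.47 to 0.888), Lockd (-0.346 to 1.14), Epb41l4aos (-0.341 to 0.755), Mir142hg (-0.667 to 0.294), Gm26917 (-0.503 to 0.476), 1810058I24Rik (-0.458 to 0.339), Ptgs2os2 (-0.0128 to 0.635), 2310001H17Rik (-0.426 to 0.195), AC140186.1 (-0.254 to 0.25), Mir17hg (-0.015 to 0.489), Snhg6 (-0.236 to 0.151) and 1700020I14Rik (-0.13 to 0.0384). All of these had groups that overlap, which a change of sign on leaving out 1 library all but requires. The ratio of the lincRNA share of counts, Aβ40 to DMSO, ran between 0.776 and 0.9 over its alternatives. With 2 libraries a group, the main edgeR fit called no member, neither those under 100 counts nor the more abundant ones. The power of the test was not computed, so a missing call does not show that a level was unchanged.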

Other observations

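The deposited table also holds rows of other long noncoding types (antisense, processed transcript, bidirectional promoter, sense intronic and sense overlapping). These rows were read from the same fit, and their types were not checked against RefSeq. At the same minimum mean count, 153 of them were tested, and edgeR called 0 higher and 0 lower, with 5 higher and 9 lower at an unadjusted p under 0.05, against 6.77% and 6.85% of all tested genes of that minimum. Their log2 fold change was negative in 91 of 153, with a median of -0.10. Gm15832, a processed transcript, had the smallest p, at 24.5 ± 4.43 CPM with Aβ40 and 56.2 ± 11.9 CPM with DMSO (log2 fold change -1.20, SE 0.23, edgeR adjusted p = 0.118). Mir22hg, the host of miR-22, had 131 ± 2.92 CPM with Aβ40 and 219 ± 54.6 CPM with DMSO (log2 fold change -0.74, SE 0.20, edgeR adjusted p = 0.277). Ndufb1-ps, a pseudogene of a respiratory chain subunit, had 114 ± 7.89 CPM with Aβ40 and 67.8 ± 12.9 CPM with DMSO (log2 fold change 0.75, SE 0.19, edgeR adjusted p = 0.255). F630028O10Rik, the host of miR-223, a microRNA typical of neutrophils, had 322 ± 73.5 CPM with Aβ40 and 287 ± 69.1 CPM with DMSO (log2 fold change 0.16, SE 0.23). These values are SD over n = 2 libraries each.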
